A study of Mus musculus with 17 samples.

Results

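Principal cells are the water- and sodium-handling cells of the collecting duct, and 10 genes that mark or serve them were followed here across 17 RNA-seq libraries from mouse kidney. The genes were chosen by name and matched by symbol to Ensembl gene identifiers, with the version dropped, and all 10 were present among the 53313 gene identifiers shared by all 17 count files. They are the aquaporins Aqp2, Aqp3 and Aqp4, the vasopressin receptor Avpr2, the epithelial sodium channel subunits Scnn1a, Scnn1b and Scnn1g, the sodium pump regulator Fxyd4, and Hsd11b2 and Nr3c2, which serve the response to aldosterone. All animals were wild type C57BL/6Rj mice (C57BL/6JRj in the study's methods). Kidney RNA came from a frozen piece of the right kidney of males aged 3, 12 or 24 months, with 3 kidneys at each age. PTEC, which the study's methods call primary tubular epithelial cells, were tubular cells grown in REGM2 medium out of collagenase-digested, sieved kidney fragments. The 4 non-senescent cultures are labelled day 6 and were not irradiated. The 4 senescent cultures are labelled day 16 and had received 10 Gray at confluence, so the effects of irradiation and of the longer culture cannot be told apart. The sources used here do not say whether the 4 cultures of a group came from separate animals, so p-values for PTEC measure the spread between cultures, which may be technical.

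In the textbook account of this cell, vasopressin binds the V2 receptor (Avpr2) on the basolateral side, cyclic AMP rises, and vesicles carrying aquaporin 2 (Aqp2) move to the luminal membrane, where water enters. It leaves again through aquaporins 3 and 4 (Aqp3, Aqp4) on the other side. Sodium enters through ENaC, a channel of alpha, beta and gamma subunits (Scnn1a, Scnn1b, Scnn1g), and is pumped out by the sodium pump, with which the small membrane protein of Fxyd4 associates. Aldosterone acts through the mineralocorticoid receptor (Nr3c2), which the enzyme of Hsd11b2 shields from glucocorticoids.

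The libraries held 26963442 to 32838856 counts on genes in non-senescent PTEC and 29041073 to 35409144 in senescent PTEC. Kidneys held 37311247 to 49471409 counts at 3 months, 54097073 to 59718029 at 12 months and 62761670 to 66894790 at 24 months, so that depth rose with age. Levels are given as CPM, counts on a common library size after TMM scaling, with PTEC and kidneys scaled apart. The quasi-likelihood test of edgeR gave every p-value unless DESeq2 is named. A gene was called up- or down-regulated where its adjusted p (Benjamini-Hochberg over all genes tested) lay under 0.05 and its log2 fold change beyond 0.5 in either direction. The PTEC, labelled proximal tubular cells, held little RNA of proximal tubule markers. The 10 markers on that list summed to 137 to 699 CPM in the non-senescent cultures and 156 to 343 CPM in the senescent ones. In the kidneys of 3 months they summed to 44690 to 46030 CPM. Most of the kidney sum was Kap, at a mean of 35580 CPM, while most of the PTEC sums was Lrp2. Lrp2 stood at means of 203 CPM in non-senescent PTEC, 227 CPM in senescent PTEC and 1629 CPM in kidneys of 3 months. In non-senescent PTEC 7 of the 10 markers reached a mean of 1 CPM.

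On GRCm38 with GENCODE M21 the genes lay on 7 chromosomes. Aqp2 is at chr15:99579055-99584547 on the plus strand, Aqp3 at chr4:41092722-41098183 (minus) and Aqp4 at chr18:15389496-15410982 (minus). Avpr2 is at chrX:73892102-73895502 (plus) and Fxyd4 at chr6:117933559-117937692 (minus). Of the ENaC genes, Scnn1a is at chr6:125320659-125344943 (plus), while Scnn1g at chr7:121734479-121768475 and Scnn1b at chr7:121865038-121918514 are neighbours on the plus strand. Hsd11b2 at chr8:105518755-105523988 and Nr3c2 at chr8:76899442-77245012 share a chromosome and the plus strand. Avpr2 shares 2347 of its 2886 exon bases (81.3%) with Arhgap4 on the opposite strand. The libraries were stranded but the strand setting of the counting is not stated, so a part of these reads could belong to either gene. Arhgap4 itself stood at a mean of 2.43 CPM in kidneys of 3 months, where Avpr2 stood at 45.3 CPM, and was not called in any comparison of ages or between the groups of PTEC. In non-senescent PTEC against kidneys of 3 months it was called lower (-1.60, adjusted p = 0.00630), as Avpr2 was. The other overlaps were small, with 247 of 6474 exon bases (3.8%) of Nr3c2 shared with Gm10649, whose mean was at most 0.185 CPM in any kidney or PTEC group.

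The 10 genes differed widely in level. Divided by exon length, Aqp2 led in kidneys of 3 months with a mean of 334 ± 145 CPM per kilobase (SD, n = 3). Hsd11b2 (87.8 ± 22.6) and Aqp3 (67.8 ± 7.40) came next, with libraries that overlapped each other but lay apart from Aqp2 above and from Fxyd4 below. Fxyd4 (28.0 ± 11.1), Scnn1a (22.4 ± 9.24), Avpr2 (15.7 ± 5.33), Scnn1b (13.6 ± 3.51), Aqp4 (13.1 ± 4.97) and Scnn1g (11.9 ± 1.58) followed, and in this stretch each gene's libraries overlapped those of the next. Nr3c2, the receptor, was lowest at 1.84 ± 0.469 CPM per kilobase, below every other member in each library. The order at 12 and 24 months kept Aqp2, Hsd11b2 and Aqp3 as the first 3 and Nr3c2 as the last. At 12 months Aqp2 (73.5 ± 0.891) overlapped Hsd11b2 (61.8 ± 25.5), which it did not at 3 or 24 months, and Avpr2 moved from the 6th place to the 9th at both older ages.

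**Figure D1:**
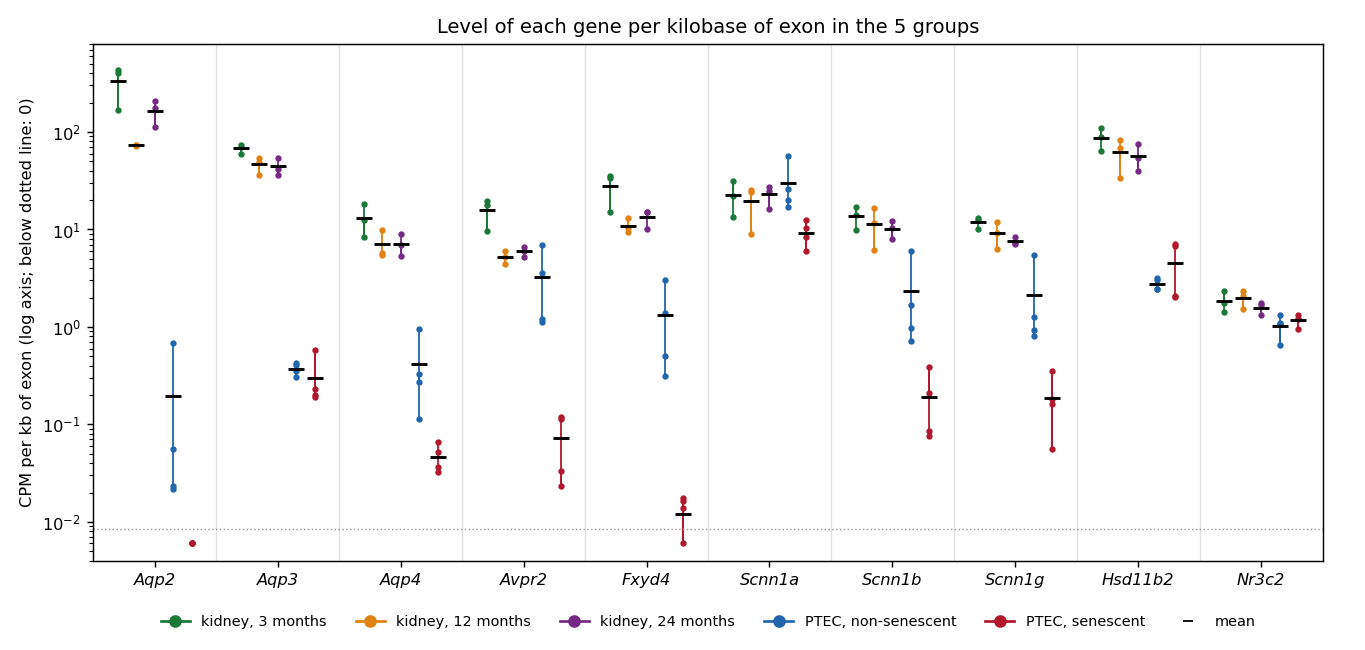
Level of each gene as CPM per kilobase of exon (log axis) in kidneys of 3, 12 and 24 months (n = 3 each) and in non-senescent and senescent PTEC (n = 4 each). Dots are libraries, thin lines span them, black bars are means, and values below the dotted line are 0. Aqp2 is the first gene by mean in the kidneys of each age and the last in both kinds of PTEC, where Scnn1a is first.

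In kidneys, age was compared at 12 against 3, 24 against 3 and 24 against 12 months. The 3 comparisons share kidneys with each other. The files of the 3-month kidneys list another gene set than those of the older ones, so age and gene set cannot be told apart in comparisons with 3 months. In whole kidney RNA, fewer principal cells and less RNA per cell cannot be told apart. At 24 against 3 months 9 of the 10 genes had lower means, and 1 of the 10, Avpr2, was called down-regulated, where 0.451% of the 17067 genes tested were called lower. At 12 against 3 months 9 of the 10 had lower means and Aqp2 and Avpr2 were called down-regulated, where 1.36% of all genes were called lower. At 24 against 12 months no member was called in either direction, where 1.33% of all genes were called. Of the members 1, Aqp2, had an unadjusted p under 0.05 there, and DESeq2 with the study's settings called it up-regulated. The median log2 fold change over the 10 genes was -0.65 at 24 against 3, -0.52 at 12 against 3 and -0.04 at 24 against 12 months, beside 0.00071, 0.0044 and -0.00044 over all genes.

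**Figure D2:**
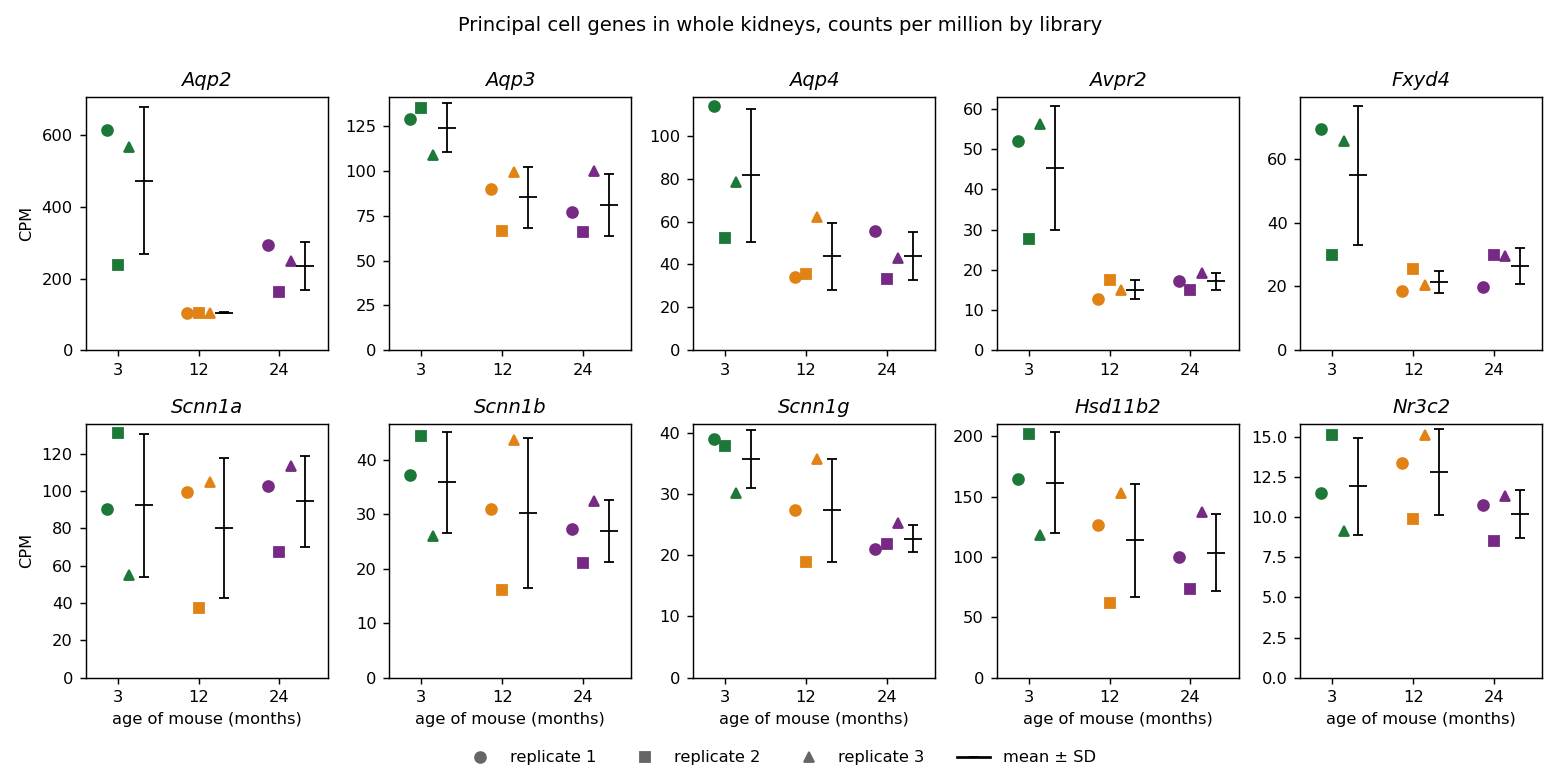
CPM of each of the 10 genes (linear axis from 0) in the 3 kidneys of each age, with the mean ± SD beside them. The kidneys of 3 months spread widely for Aqp2, from 238 to 615 CPM, while those of 12 months sit together at 103 to 105 CPM.

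The receptor was the member called in both comparisons with young kidneys. Avpr2 stood at 52.0, 27.7 and 56.2 CPM in the kidneys of 3 months, at 12.7, 17.5 and 14.99 CPM at 12 months and at 17.3, 14.9 and 19.2 CPM at 24 months. Every older kidney lay below every young one, and the older groups overlapped. Its log2 fold change was -1.59 ± 0.264 (SE; adjusted p = 0.0240) at 12 months and -1.40 ± 0.262 (adjusted p = 0.0291) at 24 months against 3 months, 3.01- and 2.64-fold lower. Between the older ages it was 0.19 ± 0.259 (adjusted p = 0.735). When single kidneys were omitted, its fold change on the log2 scale ran from -1.65 to -1.22 at 24 months and from -1.84 to -1.41 at 12 months, while most of these smaller fits did not call it. At 24 against 3 months the adjusted p of Avpr2 passed only without 3-month replicate 2 (0.00462) and lay between 0.0791 and 0.142 without any of the other 5 kidneys. At 12 against 3 months it passed without 3-month replicate 2 (0.00169) and without 12-month replicate 2 (0.0490), and lay between 0.0677 and 0.103 without any of the other 4. With only the compared ages fitted, neither passed (adjusted p = 0.0627 at 24 and 0.0856 at 12 against 3 months). With a replicate block neither passed (adjusted p = 0.0928 and 0.0728), at log2 fold changes of -1.38 and -1.54.

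Aqp2, the water channel that vasopressin controls, had the largest difference of the 10 between young and 12-month-old kidneys. It stood at 615, 238 and 567 CPM at 3 months, at 103, 105 and 104 CPM at 12 months and at 293, 162 and 248 CPM at 24 months. The kidneys of 12 months were the lowest 3 of the 9 and nearly equal, while those of 24 months overlapped with the lowest young kidney. The log2 fold change was -2.18 ± 0.355 at 12 against 3 months (4.54-fold lower, adjusted p = 0.0224), -1.02 ± 0.343 at 24 against 3 months (adjusted p = 0.174) and 1.17 ± 0.344 at 24 against 12 months (adjusted p = 0.149). In that last comparison the 3 older values all lay above the 3 at 12 months, as in 13.5% of all genes tested, and DESeq2 gave an adjusted p of 0.0331. The call at 12 against 3 months passed without 3-month replicate 2 (adjusted p = 0.00160) and was lost, at 0.0640 to 0.0946, without any of the other 5 kidneys, with log2 fold changes of -2.19 to -1.95. With those 2 ages alone in the fit the adjusted p was 0.0701.

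The water channels of the basolateral side differed less. Aqp3 stood at 129, 135 and 109 CPM at 3 months, 90.1, 66.2 and 99.4 CPM at 12 months and 77.1, 65.8 and 100.05 CPM at 24 months. All 6 older kidneys lay below the 3 young ones. The log2 fold change against 3 months was -0.54 ± 0.208 at 12 months (adjusted p = 0.227) and -0.61 ± 0.208 at 24 months (adjusted p = 0.174), and neither passed. Aqp4 stood at 114, 52.1 and 78.5 CPM at 3 months, 34.2, 35.5 and 61.9 CPM at 12 months and 55.4, 33.3 and 43.1 CPM at 24 months. Its groups overlapped, and its log2 fold change of -0.89 at both older ages (SE 0.339 at each) gave adjusted p-values of 0.221 and 0.218. Of the 10 genes, Aqp4 alone was counted under another version of its identifier at 3 months than at 12 and 24 months, and the part of this in its difference was not tested. Per kilobase, the ratio of Aqp2 to Aqp3 was 5.06 ± 2.42 (SD, n = 3) in kidneys of 3 months, 1.63 ± 0.375 at 12 months and 3.75 ± 0.989 at 24 months, and Aqp2 exceeded Aqp3 in each of the 9 kidneys.

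Fxyd4, whose product associates with the sodium pump, stood at 69.2, 29.8 and 65.4 CPM at 3 months, 18.5, 25.4 and 20.5 CPM at 12 months and 20.0, 29.76 and 29.4 CPM at 24 months. Both older groups lay below the young one, although the lowest young kidney (29.83 CPM) and the highest at 24 months (29.76 CPM) nearly met, and they overlapped each other. The log2 fold change of -1.35 ± 0.315 at 12 against 3 months missed the threshold at an adjusted p of 0.0599, and that of -1.05 ± 0.312 at 24 against 3 months gave 0.129. Without 3-month replicate 2 Fxyd4 was called in both, with adjusted p-values of 0.00534 and 0.0182. At 12 against 3 months it was also called by DESeq2 with the study's settings (adjusted p = 0.00180) and by edgeR with no filter on low counts (0.0279).

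The ENaC subunits and the aldosterone genes were not called at any age. Scnn1a ranged from 55.1 to 131 CPM at 3 months, from 37.2 to 105 CPM at 12 months and from 67.2 to 114 CPM at 24 months, with overlapping groups and log2 fold changes between -0.20 and 0.23 over the 3 comparisons. Scnn1b ranged from 26.0 to 44.3, from 16.0 to 43.6 and from 20.99 to 32.4 CPM at the 3 ages, which overlapped. Scnn1g ranged from 30.2 to 38.9, from 18.9 to 35.6 and from 21.04 to 25.3 CPM, and its kidneys of 24 months all lay below those of 3 months, with a log2 fold change of -0.65 ± 0.225 (adjusted p = 0.184). Hsd11b2 ranged from 119 to 202, from 61.6 to 153 and from 73.3 to 137 CPM, and Nr3c2 from 9.13 to 15.2, from 9.90 to 15.2 and from 8.54 to 11.4 CPM. Both overlapped at all ages. The largest of the age differences in Hsd11b2 was -0.64 ± 0.359 at 24 against 3 months (adjusted p = 0.354) and in Nr3c2 -0.33 ± 0.230 at 24 against 12 months (adjusted p = 0.524). Counting groups that did not overlap, 4 of the 10 genes lay lower at 24 than at 3 months (Avpr2, Fxyd4, Aqp3 and Scnn1g), where 10.1% of all genes did, and 4 lay lower at 12 than at 3 months (Avpr2, Fxyd4, Aqp3 and Aqp2), where 9.4% of all genes did.

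**Figure D3:**
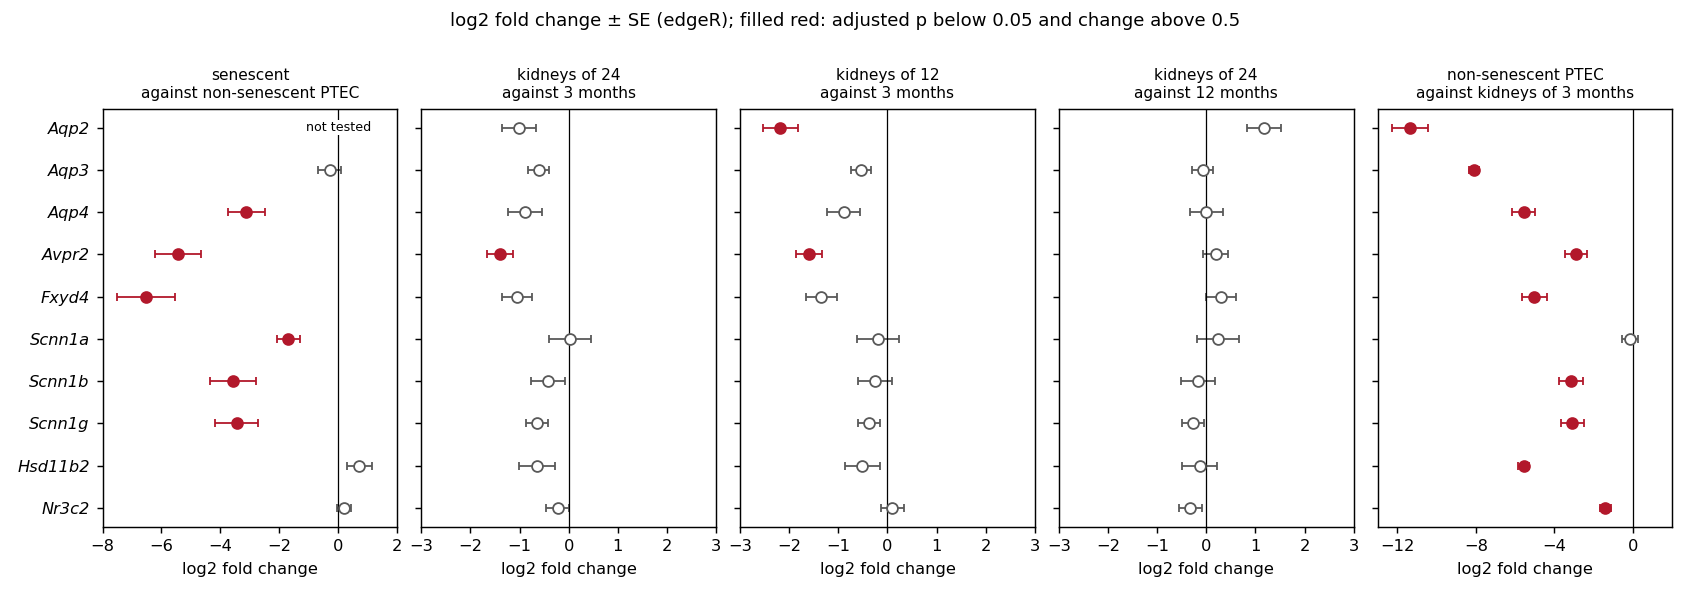
log2 fold change ± SE of each gene in the 5 comparisons (horizontal axes differ between panels), with called genes filled in red. Avpr2 is the 1 gene called in both comparisons with kidneys of 3 months, and 6 genes are called in PTEC.

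The kidney labelled 3 months, replicate 2 stood apart from the other two of its age, and in 2 directions. It was below both for Aqp2 (0.403 of their mean), Fxyd4 (0.443), Avpr2 (0.512) and Aqp4 (0.542), which are 4 of the 10 genes, and above both for Scnn1a (1.80 times their mean), Nr3c2 (1.47), Hsd11b2 (1.42), Scnn1b (1.403) and Aqp3 (1.14). Scnn1g lay between. At 12 months replicate 2 was the lowest for Scnn1a, Scnn1b, Scnn1g, Hsd11b2, Aqp3 and Nr3c2 but the highest for Avpr2, Fxyd4 and, by a small margin, Aqp2. At 24 months replicate 2 was the lowest for Aqp2, Aqp3, Aqp4, Avpr2, Scnn1a, Scnn1b, Hsd11b2 and Nr3c2, between the others for Scnn1g and the highest for Fxyd4.

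Markers of the urothelium, which lines the renal pelvis, were low in the same young kidney as Aqp2, Fxyd4, Avpr2 and Aqp4. The 8 markers on that list summed to 208, 32.7 and 171 CPM in the kidneys of 3 months, 4.98, 7.96 and 3.18 CPM at 12 months and 44.2, 25.7 and 60.6 CPM at 24 months. All 8 reached a mean of 1 CPM at 3 and 24 months and 2 did at 12 months, and none was at 0 in a whole group. At 12 against 3 months all 8 were called down-regulated, among them Krt5, a keratin of basal epithelial cells (log2 fold change -5.94 ± 0.764, adjusted p = 0.00937), Psca (-5.47) and Upk2, a protein of the urothelial surface (-5.15). Krt5 was also called up-regulated at 24 against 12 months (5.35 ± 0.751, adjusted p = 0.0196), and none of the 8 was called at 24 against 3 months. The part of this list in the members' differences was not tested. Markers of intercalated cells, the neighbours of principal cells in the duct, summed to 275 to 397 CPM at 3 months, 167 to 348 CPM at 12 months and 209 to 273 CPM at 24 months. All 10 had lower means at both older ages than at 3 months and none was called. Of leukocyte, endothelium and fibroblast markers none was called at any age, but their means mostly lay on the other side from the members. All 8 leukocyte markers had higher means at both older ages than at 3 months, with sums of 81.7 to 118 CPM at 3, 124 to 149 CPM at 12 and 126 to 176 CPM at 24 months. All 6 fibroblast markers did too, with sums of 97.2 to 122, 132 to 134 and 159 to 202 CPM. Neither sum overlapped between young and older kidneys. Of 7 endothelium markers, 7 had higher means at 12 months and 4 at 24 months. Of 7 markers of the distal convoluted and connecting tubule and of 10 of the proximal tubule, 1 (Slc8a1, 2.59 ± 0.460) and 2 (Slc5a2, 1.88 ± 0.259, and Slc5a12, 1.56 ± 0.287) were called up-regulated at 24 against 3 months. In these lists 4 of 7 and 3 of 10 had lower means at 24 months, among them S100g (405 against 599 CPM) and Kap (25080 against 35580 CPM). Proximal tubule sums, most of them Kap, were 44690 to 46030 CPM at 3, 47410 to 49960 CPM at 12 and 37080 to 41680 CPM at 24 months. Of 7 of the thick ascending limb 1 (Cldn19, -0.86 ± 0.181) was called down-regulated at 12 against 3 months.

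**Figure D4:**
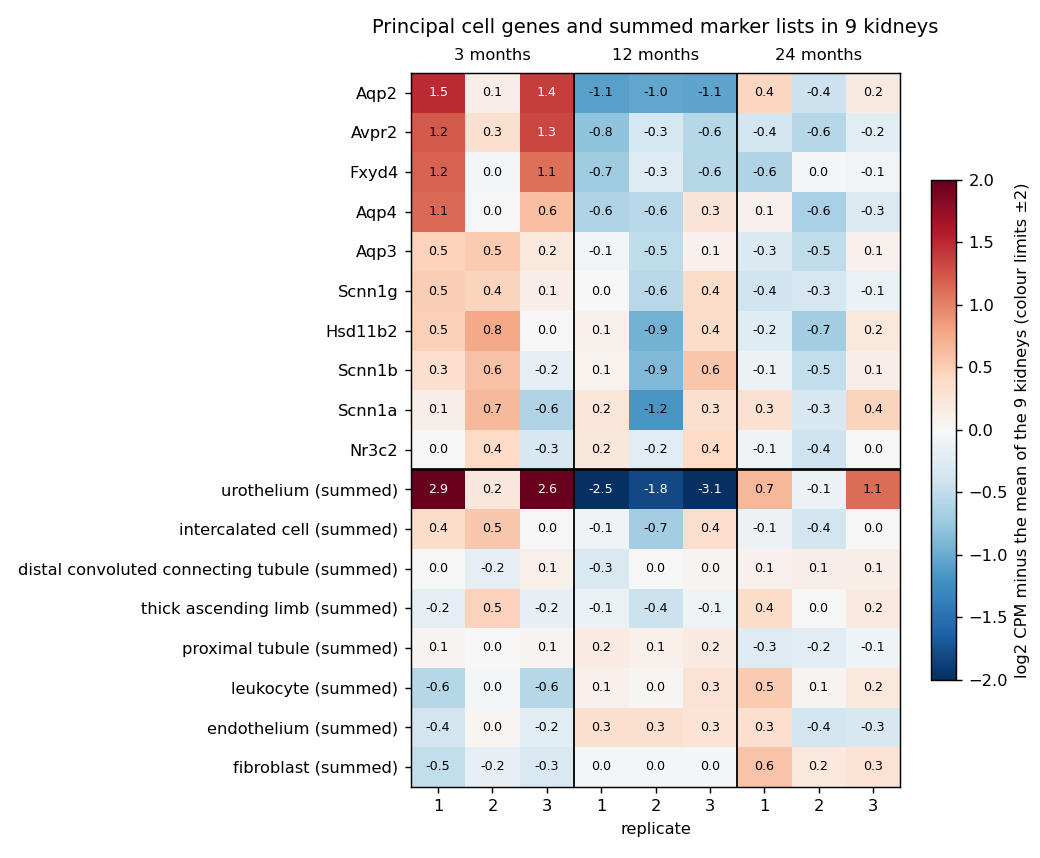
log2 CPM of each gene, and of the summed CPM of 8 lists of cell type markers, minus its own mean over the 9 kidneys, with colours limited at 2 in each direction. Aqp2, Avpr2, Fxyd4 and Aqp4 are lower in 3-month replicate 2 than in the other two young kidneys, as the urothelium markers are (32.7 against 171 and 208 CPM summed).

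Genes whose course over the 9 kidneys was most like that of Aqp2 were ranked by the root mean square difference of their log2 CPM from that of Aqp2, each centred on its own mean. The ranking took in 13319 genes whose mean reached 1 CPM. The 8 closest that were not on the list were Plet1 (a difference of 0.232 on the log2 scale), Cryab (0.249), Fam174b (0.253), Krt18 (0.278), Sfn (0.280), Adora1 (0.292), Map6 (0.301) and Nupr1 (0.306). These libraries are shared by all genes ranked, and the ranking is a description without a test. Krt18 encodes a keratin of simple epithelia and Cryab a small heat shock protein. Of the other members, Avpr2 came at rank 54 (0.436), Fxyd4 at 102 (0.524) and Aqp4 at 197 (0.608), while Aqp3 came at 971 and Scnn1g, Hsd11b2, Scnn1b, Scnn1a and Nr3c2 at 2320 to 9032.

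The promoters of Aqp2, Avpr2 and Fxyd4 are shown because these 3 had the largest differences from the young kidney. They are RefSeq sequences on GRCm38.p6, 300 bases each, running from upstream of the RefSeq start site to downstream of it, 5′ to 3′ on the strand of the gene. The windows are chr15:99578806-99579105 (plus) for Aqp2, chrX:73891852-73892151 (plus) for Avpr2 and chr6:117937286-117937585 (minus) for Fxyd4. The longest Fxyd4 transcript of GENCODE M21 starts further upstream than the RefSeq one, so this last window lies inside the gene span given above. Capitals mark matches, on either strand, to 4 motifs.
Aqp2: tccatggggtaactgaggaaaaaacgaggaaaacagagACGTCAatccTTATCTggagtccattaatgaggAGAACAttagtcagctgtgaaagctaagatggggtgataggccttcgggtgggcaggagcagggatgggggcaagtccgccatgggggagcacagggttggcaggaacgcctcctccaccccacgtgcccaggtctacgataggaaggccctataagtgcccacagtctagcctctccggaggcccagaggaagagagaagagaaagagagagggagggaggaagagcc
Avpr2: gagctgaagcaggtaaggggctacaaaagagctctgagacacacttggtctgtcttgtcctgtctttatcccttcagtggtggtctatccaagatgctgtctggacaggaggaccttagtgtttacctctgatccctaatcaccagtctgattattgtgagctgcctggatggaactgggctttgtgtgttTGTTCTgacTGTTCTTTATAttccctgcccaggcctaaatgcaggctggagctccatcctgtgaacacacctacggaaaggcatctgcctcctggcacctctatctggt
Fxyd4: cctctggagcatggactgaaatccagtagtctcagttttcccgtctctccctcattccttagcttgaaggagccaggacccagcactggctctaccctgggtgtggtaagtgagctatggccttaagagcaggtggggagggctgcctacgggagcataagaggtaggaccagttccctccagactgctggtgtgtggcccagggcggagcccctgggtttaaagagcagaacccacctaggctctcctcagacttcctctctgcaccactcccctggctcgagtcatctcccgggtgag
The core of the cyclic AMP response element was searched as TGACGT. The site of GATA factors was searched as AGATAA. The steroid hormone half-site was searched as AGAACA, and the TATA box as TATAAA. Aqp2 held the cyclic AMP element core on the reverse strand at -212 from the start, a GATA match on the reverse strand at -202 and a hormone half-site at -179. Avpr2 held the half-site on the reverse strand at -59 and again at -50, where it overlapped a reverse-strand TATA box match at -45. Fxyd4 held none of the 4. Of the 7 members with a promoter in the table, 1 held the cyclic AMP core, 1 the GATA letters, 2 the half-site and 2 the TATA box, against 7.51%, 11.2%, 19.0% and 13.6% of 32851 mouse promoters of the same length. A match describes the letters only.

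The wider pathways were followed through lists of other genes. Of 19 genes of aldosterone and sodium transport, all tested, 1 was called at 24 against 3 months, Klk1, which encodes tissue kallikrein (log2 fold change -1.05 ± 0.212, adjusted p = 0.0402), and none at 12 against 3 or 24 against 12 months. Of 18 genes of vasopressin signalling and water channel traffic, none was called at any age, and their median log2 fold change was 0.04, -0.0013 and 0.10 in the order 24 against 3, 12 against 3 and 24 against 12 months. Of 15 transcription factors of the collecting duct, 2 were called down-regulated at 12 against 3 months. These were Elf5 (-3.59 ± 0.770, adjusted p = 0.0485), found in principal cells, and Grhl2 (-1.20 ± 0.203, adjusted p = 0.0261), found in duct epithelium. Among 8 genes of the response to hypertonicity, Slc5a3, the myo-inositol carrier, was called down-regulated at 12 against 3 months (-1.36 ± 0.207, adjusted p = 0.0191) and up-regulated at 24 against 12 months (1.33 ± 0.207, adjusted p = 0.0240). Among 6 other aquaporins tested, Aqp5 was called down-regulated at 12 against 3 months (-3.89 ± 0.771, adjusted p = 0.0389), and of 5 other FXYD genes tested none was called at any age.

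In culture, the question was which of these genes differed between senescent and non-senescent PTEC. Of the 10 genes, 9 passed the filter on low counts, and 6 of the 9 were called down-regulated in senescent PTEC: Avpr2, Aqp4, Fxyd4 and the 3 ENaC subunits. None was called up-regulated. Of all 15434 genes tested 19.7% were called lower and 20.1% higher. In each of the 6 all senescent cultures lay below all non-senescent ones, as in 19.9% of all genes. The median log2 fold change of the 9 was -3.13, beside -0.0020 over all genes. All 6 calls remained with any culture left out.

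**Figure D5:**
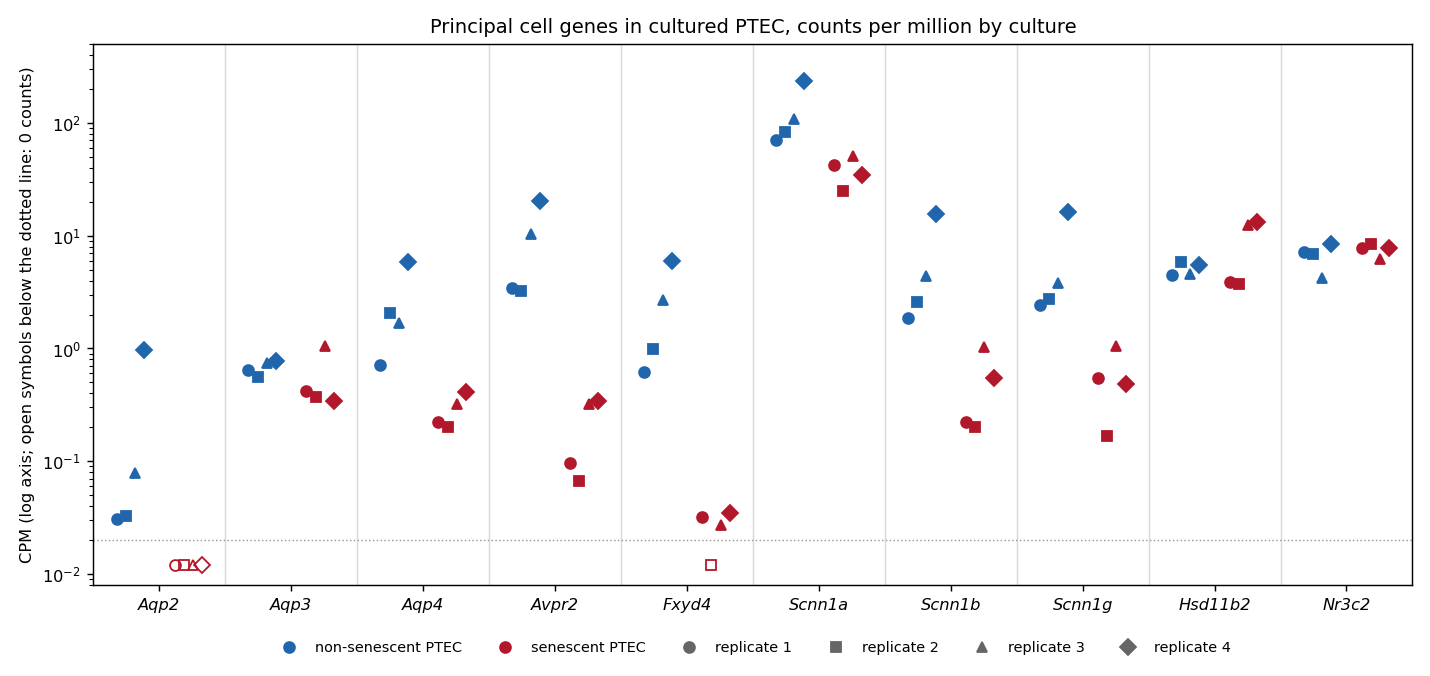
CPM of each gene (log axis) in the 4 non-senescent and 4 senescent PTEC cultures, with open symbols below the dotted line for 0 counts. The senescent cultures lie below the non-senescent ones for Aqp2, Aqp4, Avpr2, Fxyd4 and the 3 ENaC subunits, and non-senescent replicate 4 is the highest for each of these 7 genes.

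Avpr2 stood at 3.44, 3.25, 10.4 and 20.2 CPM in non-senescent PTEC and at 0.0965, 0.0670, 0.324 and 0.345 CPM in senescent PTEC. The groups were far apart, with 99 to 547 counts in the first and 2 to 12 in the second, and the log2 fold change was -5.44 ± 0.775 (43.3-fold lower, adjusted p = 0.000502). Arhgap4 on the other strand, at means of 1.20 and 0.711 CPM, gave -0.74 (adjusted p = 0.159).

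Aqp2 was barely detected in culture. It had 1, 1, 2 and 26 counts in the non-senescent cultures and none in the 4 senescent ones, and was not tested by edgeR. Summed over cultures this is 0.259 CPM against 0 CPM, at least 10.98-fold higher in non-senescent PTEC when the senescent sum is set at a floor of 3 counts over the group. The exact 95% interval of the ratio, for counting error only, has its lower end at 8.39. Without non-senescent replicate 4 the floor gives 1.91 and the interval reaches down to 0.947, so a difference was not detectable without this culture at this depth. Aqp3 stood at 0.646, 0.558, 0.745 and 0.775 CPM in non-senescent and 0.418, 0.368, 1.05 and 0.345 CPM in senescent PTEC. These overlapped, with a log2 fold change of -0.29 ± 0.393 (adjusted p = 0.579). Aqp4 stood at 0.707, 2.07, 1.69 and 5.87 CPM against 0.225, 0.201, 0.324 and 0.414 CPM, and its log2 fold change was -3.13 ± 0.630 (8.73-fold lower, adjusted p = 0.00332).

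Fxyd4 had the largest fall of the tested members. It had 20, 30, 69 and 162 counts (0.615 to 5.98 CPM) in non-senescent PTEC and 1, 0, 1 and 1 counts in senescent PTEC, with a log2 fold change of -6.53 ± 0.983 (adjusted p = 0.000678). Since the senescent counts are so few, the ratio of summed CPM is given too. It was 103, with an exact 95% interval of 34.8 to 502 that covers counting error only, and 56.9 (19.0 to 280) without non-senescent replicate 4.

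The ENaC subunits did not differ equally. Scnn1a, the alpha subunit, was the most abundant member in culture, at 71.1, 83.3, 108 and 235 CPM in non-senescent and 42.4, 24.9, 51.3 and 34.8 CPM in senescent PTEC, a log2 fold change of -1.70 ± 0.381 (3.24-fold lower, adjusted p = 0.00583). Scnn1b, the beta subunit, stood at 1.88, 2.59, 4.39 and 15.7 CPM against 0.225, 0.201, 1.03 and 0.553 CPM (-3.58 ± 0.787, 11.9-fold lower, adjusted p = 0.00522). Scnn1g, the gamma subunit, stood at 2.43, 2.76, 3.80 and 16.3 CPM against 0.547, 0.167, 1.05 and 0.484 CPM (-3.46 ± 0.745, 10.97-fold lower, adjusted p = 0.00468). The per-kilobase ratio of beta to gamma had a mean between 1.06 and 1.34 in every group, and ran from 0.877 to 1.47 over the kidneys and non-senescent cultures but from 0.468 to 1.36 over the senescent ones, where counts were few. The per-kilobase ratio of alpha to beta was 1.597 ± 0.272, 1.69 ± 0.316 and 2.23 ± 0.183 (SD, n = 3) in kidneys of 3, 12 and 24 months, 17.5 ± 6.31 (n = 4) in non-senescent PTEC and 67.8 ± 40.5 (n = 4) in senescent PTEC. Its lowest value in a PTEC culture, 9.56, lay above its highest in a kidney, 2.41, and the PTEC groups did not overlap (9.56 to 24.1 against 31.9 to 120). The ratios are descriptions without a test.

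The aldosterone genes were not called. Hsd11b2 stood at 4.46, 5.84, 4.55 and 5.54 CPM in non-senescent PTEC and at 3.86, 3.75, 12.4 and 13.2 CPM in senescent PTEC. The senescent cultures split, replicates 1 and 2 lying below all non-senescent cultures and replicates 3 and 4 above them, and the log2 fold change was 0.70 ± 0.422 (adjusted p = 0.204). Nr3c2 stood at 7.13, 6.89, 4.24 and 8.49 CPM against 7.85, 8.51, 6.16 and 7.81 CPM, with a log2 fold change of 0.18 ± 0.231 (adjusted p = 0.558).

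Non-senescent replicate 4 was the highest culture for 9 of the 10 genes, and the excess was unequal. It stood at 20.3 times the mean of the other 3 for Aqp2, 5.43 for Scnn1g, 5.31 for Scnn1b, 4.17 for Fxyd4, 3.95 for Aqp4, 3.55 for Avpr2 and 2.69 for Scnn1a, but at 1.395 for Nr3c2, 1.19 for Aqp3 and 1.12 for Hsd11b2. The genes with a large excess were Aqp2 and the 6 called down-regulated. The same culture had the highest summed proximal tubule markers (699 CPM, against 137 to 172 CPM) and thick ascending limb markers (104 CPM, against 41.7 to 79.7 CPM) of its group, and also the highest intercalated cell (8.64 CPM, against 1.88 to 2.99 CPM), distal convoluted and connecting tubule (60.6 CPM, against 25.5 to 49.0 CPM) and fibroblast sums (89.9 CPM, against 13.5 to 73.5 CPM). Without it the median log2 fold change of the members moved from -3.13 to -2.34 and the count of 6 did not change. Single values moved by over 1.5 times, to -5.69 for Fxyd4, -4.73 for Avpr2, -2.53 for Scnn1b, -2.39 for Scnn1g and -2.34 for Aqp4, and Scnn1b moved to -4.21 without senescent replicate 3. Thick ascending limb markers summed to 41.7 to 104 CPM in non-senescent and 9.24 to 21.2 CPM in senescent PTEC, with 5 of 7 called down-regulated and none at 0 in a whole group. The lowest were Slc12a1 (-4.77), Cldn16 (-3.54) and Cldn10 (-3.36). The other 2, Egf (3.456 against 2.585 CPM) and Ptger3 (3.11 against 2.639 CPM), had higher means in senescent PTEC and were not called. Markers of the distal convoluted and connecting tubule summed to 25.5 to 60.6 CPM in non-senescent and 44.4 to 101 CPM in senescent PTEC, with 1 of 3 tested called up-regulated (Trpm6, 1.01) and 1 down-regulated (S100g, -1.90). Most of that sum was Trpm6, at means of 32.5 and 65.6 CPM. Slc12a3, Calb1 and Trpv5, which were too low to be tested, had means of 1.01, 1.07 and 1.02 CPM in non-senescent and 0.0634, 0.0611 and 0.0423 CPM in senescent PTEC. Proximal tubule sums overlapped between the groups, and most of them was Lrp2, at means of 203 and 227 CPM. The other 9 proximal markers had lower means in senescent PTEC, among them Kap (28.4 against 3.08 CPM) and Slc34a1 (9.12 against 0.0248 CPM). Of the other lists of cell type markers, 2 of 5 proximal tubule, 1 of 2 intercalated cell, 2 of 6 urothelium, 2 of 8 leukocyte and 1 of 7 endothelium markers tested were called down-regulated, and 3 of 5 fibroblast and 1 of 6 urothelium markers up-regulated. The part of these cell types in the members' differences was not tested. Beside all these counts, 19.7% of all genes tested were called lower and 20.1% higher.

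Among the other pathway genes in culture, 19 aldosterone and sodium transport genes were tested, with 2 called up- and 6 down-regulated in senescent PTEC. Over all genes tested the shares were 20.1% up and 19.7% down, beside which the counts of the lists below stand too. The falls included Klk1 (-7.80 ± 0.944), the potassium channel Kcnj1, known as ROMK (-5.72 ± 0.932), and the protease Tmprss4 (-4.35 ± 0.662). Klk1 had 15 to 42 counts in the non-senescent cultures and 0 in every senescent one, so its value is no exact fold. Kcnj1 had 1 to 2 counts in the senescent cultures and Tmprss4 0 to 10, so the order of these genes is not resolved. The rises were Kcnma1, the large-conductance potassium channel (2.67 ± 0.532), and Edn1, endothelin 1 (0.54 ± 0.126). Adjusted p-values of these 5 genes lay between 0.000720 and 0.00684. Of 17 vasopressin pathway genes tested, 2 were called up- and 4 down-regulated, with the adenylyl cyclase Adcy3 (1.36 ± 0.214) and the vesicle protein Vamp2 (0.75 ± 0.216) up, and the endothelin receptor Ednrb (-2.82 ± 0.519), the urea transporter Slc14a2 (-2.21 ± 0.385) and Prkar2a, a regulatory subunit of protein kinase A (-1.003 ± 0.167), lowest. Of 14 collecting duct transcription factors tested, 6 were called down-regulated, with Elf5 (-5.13 ± 0.735), Elf3 (-1.42 ± 0.225) and Gata2 (-1.34 ± 0.293) lowest, and 1, Pax2, up-regulated (0.67 ± 0.156). Of 8 hypertonicity genes 2 were called in each direction, with the taurine carrier Slc6a6 (1.82 ± 0.453) and Gdpd5 (1.01 ± 0.134) up and the betaine carrier Slc6a12 (-1.28 ± 0.3495) down among those whose groups did not overlap. Among relatives of the members, 2 of 3 other aquaporins and 2 of 4 other FXYD genes tested were called down-regulated, and Fxyd2, which encodes the gamma subunit of the sodium pump (-4.02 ± 0.644), and Aqp11 (-1.596 ± 0.319) had groups that did not overlap.

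Non-senescent PTEC were last compared with kidneys of 3 months, to place the culture levels beside the tissue. Tissue, culture and gene set change together here and cannot be told apart. Of the 10 genes 9 were called lower in non-senescent PTEC, where 32.6% of the 16190 genes tested were, and none higher, where 33% were. All 9 had groups that did not overlap, as 32.7% of all genes did in that direction. The log2 fold changes were -11.36 ± 0.922 for Aqp2, -8.08 ± 0.263 for Aqp3, -5.57 ± 0.591 for Aqp4, -5.56 ± 0.272 for Hsd11b2, -5.02 ± 0.654 for Fxyd4, -3.15 ± 0.603 for Scnn1b, -3.10 ± 0.575 for Scnn1g, -2.88 ± 0.560 for Avpr2 and -1.41 ± 0.294 for Nr3c2. Adjusted p-values of the 9 lay between 6.08e-09 and 0.00139. The value for Aqp2 rests on the 1, 1, 2 and 26 counts in culture. Without non-senescent replicate 4 it was -13.77, and Aqp4 stood at -6.33, Fxyd4 at -5.84, Scnn1b at -4.17, Scnn1g at -4.13 and Avpr2 at -3.57, with all 9 still called. Scnn1a was the exception, with a log2 fold change of -0.16 ± 0.411 (adjusted p = 0.739), which was 0.41 with library totals as the only scaling, where the median of all genes stood at 0.60 instead of 0.05. Intercalated cell markers, with 10 of 10 called lower and a median log2 fold change of -9.69, and proximal tubule markers, with 10 of 10 called lower and a median of -8.54, had lower medians than the members, whose median was -4.08. So did markers of the distal convoluted and connecting tubule (6 of 7 called lower, median -7.12), the thick ascending limb (5 of 7, -6.65) and the urothelium (6 of 8, -4.96) and the other aquaporins (5 of 5 tested, -5.46). Of the 10 intercalated cell markers, 1 reached a mean of 1 CPM in non-senescent PTEC and 1 had no counts there. Their median is thus no exact fold. The median was higher than the members' for other FXYD genes (4 of 5 called lower, -4.06) and for fibroblast (5 of 6, -3.28), leukocyte (7 of 8, -1.47) and endothelium markers (5 of 7, -1.36). The order against the FXYD genes is not resolved, since the members' median ran from -4.875 to -3.761 with 1 library left out. Of 8 hypertonicity genes 5 were called higher and 1 lower. The pathway lists were mixed, with 9 of 19 aldosterone and sodium transport genes, 6 of 18 vasopressin pathway genes and 7 of 15 transcription factors called lower and 4, 4 and 3 called higher.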

How the data were processed

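The study prepared stranded poly(A) libraries, and the authors deposited raw read counts per gene for each library, without normalization, on GRCm38. The study's methods name the nf-core/rnaseq pipeline (version 1.4.2) and GENCODE release M18. The aligner and counter run within it and the strand setting are not given in the sources used here. The PTEC files, the 3-month kidney files and the older kidney files list 53715, 54146 and 55401 gene identifiers, and fits used those shared (53772 over the kidneys, 53684 for PTEC with 3-month kidneys). Names and positions are from GENCODE M21. The members, lists and rules were chosen with earlier results of these data known.

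Group comparisons ran in edgeR 4.0.16 under R 4.3.3 (TMM, filterByExpr, robust quasi-likelihood test, Benjamini-Hochberg adjustment) and, as an alternative, DESeq2 1.42.0. All 9 kidneys shared 1 fit. Python 3.11.15 with pandas 2.3.3, scipy 1.17.1 and matplotlib 3.10.9 served the rest. log2 CPM used a prior count of 2. Every member is named in each comparison, and of each other list at most the 3 highest and 3 lowest of the called genes with groups that do not overlap. The rule also took the 10 genes closest to Aqp2 over the kidneys, of which the nearest 8 are named and the others are not reported here.

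Deviations of same-numbered PTEC cultures correlated with r from 0.186 to 0.614 over 4 numbers. Those of same-numbered kidneys of 12 and 24 months gave 0.172 to 0.557 over 3. Unlike-numbered PTEC cultures reached 0.265 and unlike-numbered kidneys of those ages 0.27, and the kidneys come from different mice. The main fits used the group alone and took no numbers as pairs, and a replicate block was run as an alternative. Same-numbered kidneys in the other comparisons of ages gave -0.701 to -0.0336. The fits were tested on simulated data. Over 21 pairs of replicates the chi-square of their counts was 15.8 to 312 per gene, so none was a repeat of another. Alternatives were other scalings, filters, thresholds, a replicate block, fits of the compared ages alone and each library left out.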

Additional observations from a re-analysis of the deposited data

Results flagged for a closer look

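In groups of 4 cultures, 3 values of 19 sets of values examined lay far from the other 3 by Dixon's criterion at 95%, which chance alone meets in about 1 set in 20. Non-senescent replicate 4 was high for Aqp2, at 0.960 CPM with the next culture at 0.0784 CPM, and for Scnn1g, at 16.3 CPM with the next at 3.80 CPM. Senescent replicate 3 was high for Aqp3, at 1.05 CPM with the next at 0.418 CPM.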

How the results depend on the processing

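Of the 10 counts of called members, that in non-senescent PTEC against kidneys of 3 months (9 down, 0 up) did not move under any alternative run. In PTEC (6 down, 0 up) it moved under 1 of them, DESeq2 with the study's settings, which tested Aqp2 too and called it, 7 down in all. In kidneys, DESeq2 with the study's settings called 2 members down at 24 against 3 months (Avpr2, Fxyd4), 3 down at 12 against 3 months (Fxyd4 beside Aqp2 and Avpr2), as with no filter on low counts, and 1 up at 24 against 12 months (Aqp2). A replicate block called 0 down at 24 against 3 and 1 at 12 against 3 months, and changed no call in PTEC or at 24 against 12 months. Fits of the compared ages alone called 0 in each of the first 2. With 1 library left out the count of members down ran from 0 to 3 at 24 against 3 and from 0 to 3 at 12 against 3 months. Median log2 fold changes then ran from -3.44 to -2.34 in PTEC and from -4.88 to -3.76 for PTEC against kidneys, where the replicate block gave -4.89. The cause was not tested.

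Differences near 0 changed sign. With the replicate block Scnn1a at 24 against 3 months was -0.040, and with library totals alone Scnn1a in PTEC against kidneys was 0.41. Aqp4 at 24 against 12 months was -0.0052 with DESeq2 size factors, -0.050 with upper quartile scaling, -0.013 with no filter and -0.015 with the replicate block. With 1 library left out, Scnn1a ran from -0.23 to 0.38 at 24 against 3, from -0.47 to 0.15 at 12 against 3, from -0.11 to 0.47 at 24 against 12 months and from -0.64 to 0.19 in PTEC against kidneys. Scnn1b ran from -0.61 to 0.056 and Nr3c2 from -0.062 to 0.32 at 12 against 3 months. At 24 against 12 months Aqp3 ran from -0.26 to 0.058, Aqp4 from -0.20 to 0.34, Scnn1b from -0.47 to 0.20 and Hsd11b2 from -0.43 to 0.14. Depth limits Aqp2 and Fxyd4 in senescent PTEC, with 0 and 3 counts in all.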

Other observations

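At 24 against 12 months all 15 collecting duct transcription factors had higher means (median log2 fold change 0.38) and none was called, and all 8 hypertonicity genes had higher means (median 0.50) with 1 called, Slc5a3. The summed transcription factors overlapped, at 575, 330 and 543 CPM at 12 months and 588, 508 and 580 CPM at 24 months, with 12-month replicate 2 the lowest. By replicate number the sum was higher at 24 months each time, but same-numbered kidneys are different mice and no pairs. The hypertonicity genes summed to 506, 384 and 537 CPM and 758, 550 and 647 CPM, which did not overlap. Over all genes the median was -0.00044.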
